A study of Mus musculus with 6 samples.

Results

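Cells take up long-chain fatty acids with the help of a small set of proteins, and the transcripts of 9 such genes were examined in mouse mesenchymal stem cells exposed to terahertz light. The genes were Cd36, Lpl, Fabp3, Fabp4, Fabp5, Slc27a1, Acsl1, Vldlr and Gpihbp1. They were picked by name for their role in fatty acid uptake and binding, and a probe set was taken as theirs where the array annotation gave it exactly 1 symbol, equal to the gene's. That rule found 22 probe sets for 8 of the 9 genes, out of 45037 probe sets and 18193 genes tested on the arrays. Acsl1 was not analysed here. For each gene the brightest probe set, by its mean on all 6 arrays, stood for the gene, and the others served as checks.

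In each of 3 independent experiments 1 culture was irradiated for 2 h with a continuous-wave laser at 2.52 THz (a wavelength of 118.8 µm), and 1 control culture stood beside it without irradiation. Both groups, of 3 cultures each, were kept at 26 to 27 °C, and both had been given a mixture commonly used to turn such cells into fat cells, renewed 48 h before the exposure. It held 5 µg/ml insulin, 100 µM isobutylmethylxanthine, and 1 µM each of rosiglitazone and dexamethasone. The cells came from 1 commercial stock, no culture without the mixture was examined, and RNA was taken when the exposure ended. The comparison asks whether an irradiated culture differed from its own control.

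In fat tissue, lipoprotein lipase cuts fatty acids out of circulating lipoproteins, held at the capillary wall by GPIHBP1 of the endothelium. The scavenger receptor CD36 and the transport proteins of the SLC27 family help fatty acids across the plasma membrane, the VLDL receptor takes in lipoproteins rich in triglyceride, and acyl-CoA synthetases trap fatty acids by activating them. Small cytosolic binding proteins of the FABP family then carry them in the cell. Many of these genes are targets of PPARG, the nuclear receptor that rosiglitazone activates, so that fat-cell cultures usually express them strongly.

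Promoter windows of 300 bases, 250 before to 50 after a gene's start, were given by RefSeq for 4 of the 8 measured genes, in 7 windows. Those of Cd36 and Fabp3 are shown because Cd36 varied most between the cultures and Fabp3 was the one gene with a difference of 1 sign in all 3 experiments. Capitals mark the letters AGGTCA or, on the other strand, TGACCT, the half-site that PPARG and its partner RXR recognise. Both are from build GRCm38.p6 and are written 5′ to 3′ on the gene's own strand. The Cd36 window is chr5:17835847-17836146 on the minus strand, and the Fabp3 window is chr4:130308488-130308787 on the plus strand.
Cd36: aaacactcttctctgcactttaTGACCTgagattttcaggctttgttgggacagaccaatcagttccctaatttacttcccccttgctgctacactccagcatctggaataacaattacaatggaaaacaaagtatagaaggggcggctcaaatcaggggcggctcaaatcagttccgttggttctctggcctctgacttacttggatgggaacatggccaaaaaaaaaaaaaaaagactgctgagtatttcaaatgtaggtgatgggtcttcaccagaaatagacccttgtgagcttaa
Fabp3: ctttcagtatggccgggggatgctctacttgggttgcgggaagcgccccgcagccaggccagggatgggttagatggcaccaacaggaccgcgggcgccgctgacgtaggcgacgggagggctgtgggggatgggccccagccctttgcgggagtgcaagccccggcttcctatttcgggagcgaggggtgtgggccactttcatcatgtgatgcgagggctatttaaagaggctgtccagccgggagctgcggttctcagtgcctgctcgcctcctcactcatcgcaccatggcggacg
The half-site was found once, 228 bases before the start of Cd36, and in none of the other 6 windows, where 16.3% of all 32851 promoter windows held it on either strand. The full direct repeat AGGTCANAGGTCA, which contains the half-site, was in 0 of the 7 windows and in 0.0396% of all of them. CCAAT, the CCAAT box, or ATTGG on the other strand was in 4 of the 7 windows, including that of Cd36, and in 37.4% of all of them. A match describes letters in a window, and such letters were not tested for binding.

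All values are RMA levels, the authors' normalized log2 signals per probe set, and each array's median lay between 5.01 and 5.05. Levels of different probe sets depend on their probes and were not compared as amounts of RNA. Of the 8 measured genes, 6 reached the median gene level of 6.46, and Fabp3 and Gpihbp1 did not. Of 10 measured fat-cell markers 8 reached that level, with Adipoq at 13.61 to 13.83 in irradiated and 13.61 to 13.87 in control cultures. So did 9 of 11 measured stromal markers, with Col1a2 at 13.65 to 13.79 in irradiated and 13.47 to 13.90 in control cultures. Macrophage markers were bright as well, 12 of 14 reaching it, with Csf1r at 12.39 to 13.09 in irradiated and 12.61 to 12.86 in control cultures, whereas 1 of 12 endothelial and 0 of 12 muscle markers did so. Array 3 of the controls had the largest gap between the 3′ and 5′ actin control probe sets, 0.68 log2 units against 0.50 to 0.57 on the other 5 arrays, and results without experiment 3 are given where the direction differs. In cultures read in bulk, fewer cells of a type and less RNA per cell cannot be told apart.

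No difference between irradiated and control cultures passed the test in any of the 8 genes. In limma with the experiment as a block, 0 of 8 passed a Benjamini-Hochberg adjusted p of 0.05 and 0 of 8 had an unadjusted p under 0.05, where 0% and 3.31% of all 18193 genes did so. Each of the 8 had an adjusted p of 0.995 in limma. Their median difference was -0.033 log2 units, against -0.01 over all genes. With the brightest probe set for each gene, the 95% interval of each of the 8 lay within 1.5-fold in either direction, as it did for 98.3% of all genes. The widest of these, that of Cd36, still allowed an irradiated level between 0.728 and 1.294 times the control level. Among all 22 probe sets the dimmest of Fabp4 reached further, with an interval from 0.626 to 1.073 times the control level.

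**Figure D1:**
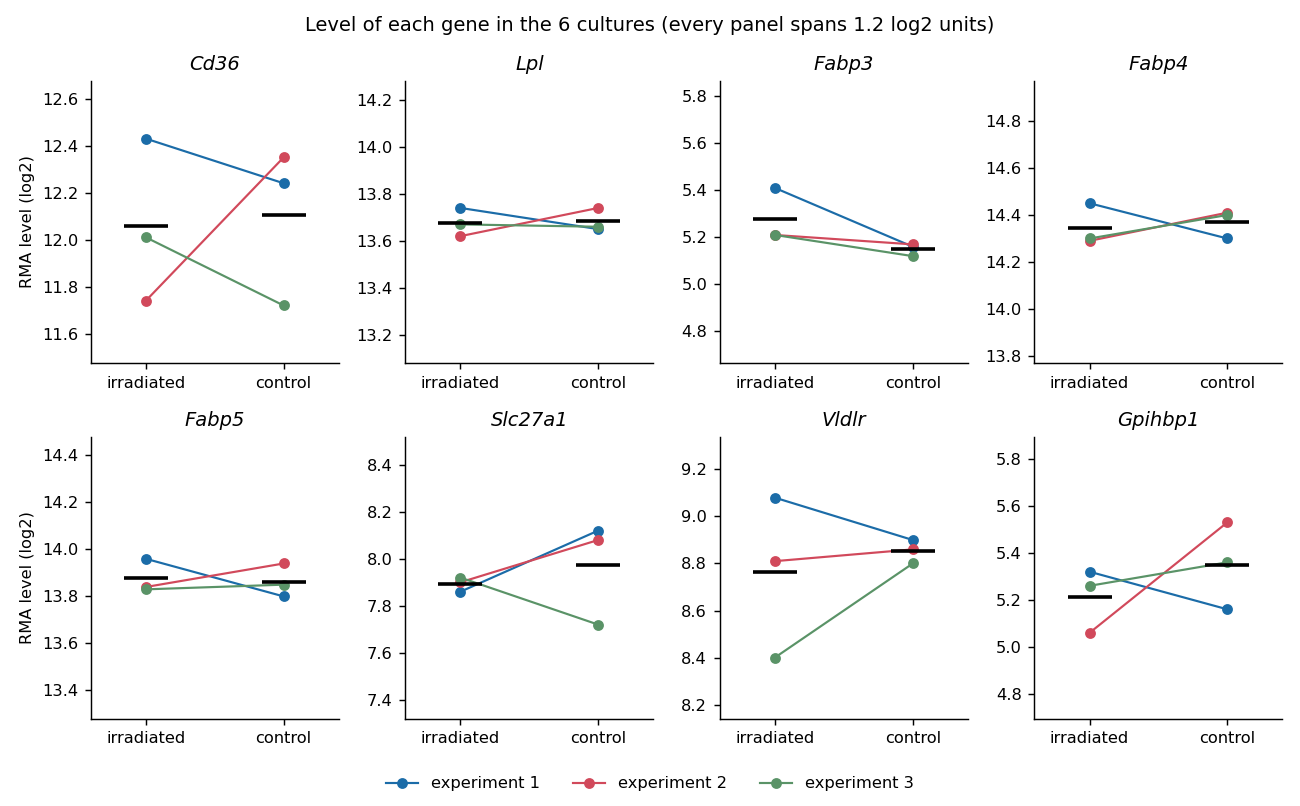
RMA level (log2, vertical axis) of each of the 8 measured genes in the irradiated cultures (left) and control cultures (right), 3 each; lines join the cultures of 1 experiment and black bars are group means. Cd36 and Vldlr spread most, and in Fabp3 alone all 3 irradiated cultures (5.21 to 5.41) lay above all 3 controls (5.12 to 5.17).

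Among the genes of uptake at the cell surface, Cd36 varied most between cultures. Its level (probe set 1450883_a_at) was 12.43, 11.74 and 12.01 in the irradiated cultures of experiments 1 to 3, against 12.24, 12.35 and 11.72 in their controls. The highest irradiated culture was that of experiment 1, the lowest control was that of experiment 3, and the groups overlapped over nearly their whole range. The difference was 0.19, -0.61 and 0.29 log2 units in the 3 experiments, with a mean of -0.043 (SE 0.17, n = 3 pairs; 95% interval -0.46 to 0.37 in limma). The controls alone spanned 0.63 log2 units, slightly more than the largest difference within a pair. Only 1.42% of all genes had a larger SD over the 6 arrays than Cd36. Without experiment 2 the mean of Cd36 was 0.24 (SE 0.085), with an unadjusted p of 0.0585 and an adjusted p of 0.994 in limma.

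The other probe sets of Cd36 repeated this pattern. One of like brightness differed by 0.16, -0.57 and 0.33, and a dimmer one, with a mean level of 8.38, by 0.08, -0.76 and 0.33. All 3 probe sets put experiment 2 below 0 and experiments 1 and 3 above it. They read the same RNA samples and are no further replicates.

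Slc27a1, which encodes the fatty acid transport protein FATP1, stood at 7.86, 7.90 and 7.92 in irradiated cultures, against 8.12, 8.08 and 7.72 in controls (probe set 1435658_at). The irradiated cultures lay within 0.06 log2 units of each other, inside the 0.40 that the controls spanned. The differences were -0.26, -0.18 and 0.20, with a mean of -0.080 (SE 0.11; unadjusted p 0.487 in limma). Its other probe set gave 0.04, -0.22 and 0.11. The probe sets differed in sign in experiment 1 and had the same sign in experiments 2 and 3.

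Vldlr, the receptor for very low density lipoprotein, stood at 9.08, 8.81 and 8.40 in irradiated cultures, against 8.90, 8.86 and 8.80 in controls (probe set 1434465_x_at). The controls were close together and the irradiated cultures spread on both sides of them. The differences were 0.18, -0.05 and -0.40, with a mean of -0.090 (SE 0.12; 95% interval -0.38 to 0.20 in limma). Experiment 3, not experiment 2, was furthest from 0. Affymetrix gives the ending x_at to probe sets in which some probes also match other sequences, so the value is less certain. The next brightest probe set of Vldlr moved alike, at 0.27, -0.07 and -0.36. In the 4 dimmer ones, at mean levels from 4.86 to 6.51, the mean difference lay between -0.093 and 0.060. Of all 6 probe sets, 5 were below 0 in experiment 3. Without experiment 3 the mean of Vldlr was 0.065, on the other side of 0.

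Among the genes of lipoprotein hydrolysis, Lpl, which encodes the lipase itself, hardly varied. Its level was 13.74, 13.62 and 13.67 in irradiated cultures, against 13.65, 13.74 and 13.66 in controls (probe set 1415904_at). The whole range over the 6 cultures was 0.12 log2 units, and 93.2% of all genes had a larger SD over the arrays. The differences were 0.09, -0.12 and 0.01, with a mean of -0.0067 (SE 0.083; 95% interval -0.20 to 0.19 in limma). A second probe set of Lpl, at a mean level of 13.35, gave 0.08, -0.27 and 0.10.

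Gpihbp1, which anchors the lipase on capillary endothelium, was dim at 5.32, 5.06 and 5.26 in irradiated cultures, against 5.16, 5.53 and 5.36 in controls (probe set 1453022_at). The irradiated culture of experiment 2 was the lowest of the 6 and its own control the highest. The differences were 0.16, -0.47 and -0.10, with a mean of -0.14 (SE 0.13; 95% interval -0.44 to 0.16 in limma). It was read by 1 probe set, so there was no second reading as a check. Of the endothelial markers, Pecam1 stood at 2.90 to 3.08 in irradiated and 2.90 to 3.27 in control cultures, and Cdh5 at 3.60 to 3.68 in irradiated and 3.49 to 3.69 in control cultures. Both were near the low end of the array's scale, whose lowest value was 1.73. The 3 brightest endothelial markers were higher. Egfl7 stood at 6.55 to 6.75 in irradiated and 6.60 to 6.77 in control cultures. Kdr stood at 5.37 to 5.74 in irradiated and 5.60 to 5.75 in control cultures, and Esam at 4.93 to 5.16 and 4.87 to 5.06.

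Of the binding proteins, Fabp4, the form typical of fat cells and macrophages, had a level of 14.45, 14.29 and 14.30 in irradiated cultures, against 14.30, 14.41 and 14.40 in controls (probe set 1417023_a_at). Experiment 1 had the irradiated culture above its control and experiments 2 and 3 below it. The differences were 0.15, -0.12 and -0.10, with a mean of -0.023 (SE 0.090; 95% interval -0.24 to 0.19 in limma). Fabp5, the epidermal form, which fat cells and macrophages also make, stood at 13.96, 13.84 and 13.83 in irradiated cultures, against 13.80, 13.94 and 13.85 in controls (probe set 1416021_a_at). Its differences were 0.16, -0.10 and -0.02, with a mean of 0.013 (SE 0.087). The other probe set of Fabp5 gave 0.14, -0.30 and 0.20, with the opposite sign in experiment 3. The other 3 of Fabp4, from bright to dim, gave 0.50, -0.11 and -0.38, then 0.12, -0.67 and 0.04, and then 0.24, -0.67 and -0.43. Their means were 0.0033, -0.17 (SE 0.16) and -0.29 (SE 0.17). All 4 probe sets of Fabp4 and both of Fabp5 were above 0 in experiment 1 and below it in experiment 2, and their signs in experiment 3 were mixed.

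Fabp3, the heart form, which brown fat cells also make, stood at 5.41, 5.21 and 5.21 in irradiated cultures, against 5.16, 5.17 and 5.12 in controls (probe set 1416023_at). It was the only one of the 8 genes whose groups did not overlap, where 2.9% of all genes had every irradiated culture above every control and 8.26% did not overlap in either direction. The differences were 0.25, 0.04 and 0.09, with a mean of 0.13 (SE 0.083; 95% interval -0.073 to 0.33; unadjusted p 0.175 in limma). Its other probe set, at a mean level of 4.84, gave -0.12, 0.03 and 0.06, with a mean of -0.010, and its groups overlapped. Both probe sets were below the median gene level.

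Fabp4 and Fabp5 lie in 1 cluster of FABP genes, in the order Fabp5, Pmp2, Fabp9, Fabp4 and Fabp12 among protein-coding genes in the RefSeq table of GRCm38.p6. The other members of the cluster were dim, namely Pmp2, known from myelin, Fabp9, from testis, and Fabp12, from retina and testis. Pmp2 stood at 4.21, 4.55 and 4.51 in irradiated and 4.12, 4.29 and 4.55 in control cultures, Fabp9 at 3.49 to 3.83 in irradiated and 3.48 to 3.95 in control cultures, and Fabp12 at 4.94 to 5.17 in irradiated and 4.99 to 5.05 in control cultures. Their mean differences were 0.10, -0.063 and 0.017 log2 units.

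**Figure D2:**
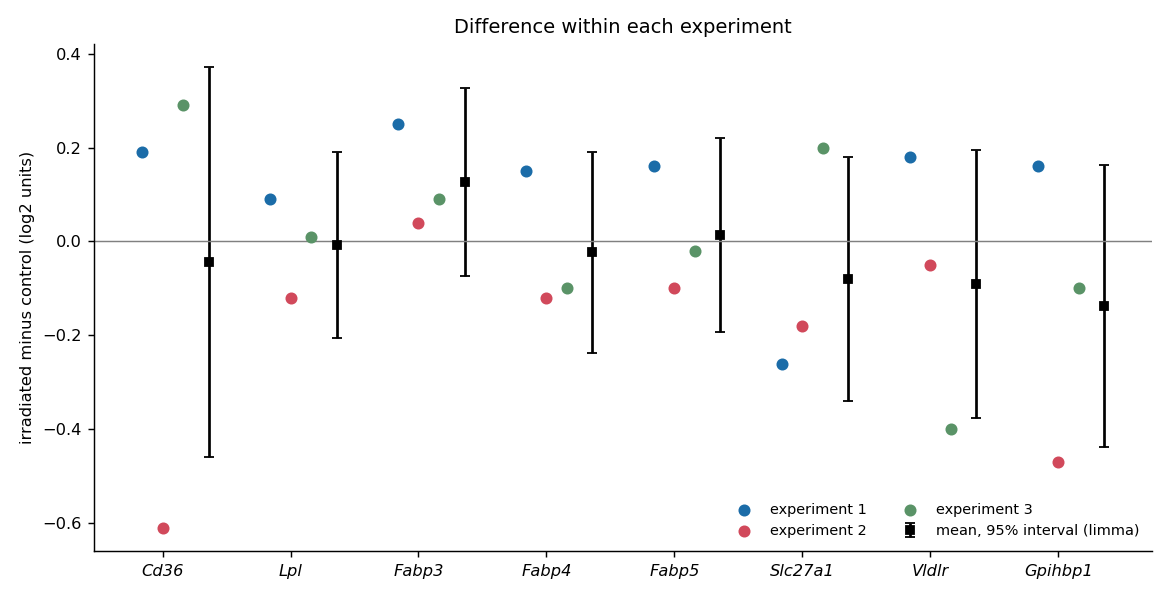
Irradiated minus control (log2 units, vertical axis) for each gene in each of the 3 experiments (coloured points), with the mean and its 95% interval from limma (black squares and bars). Every interval includes 0, and the experiment 2 points of Cd36 (-0.61) and Gpihbp1 (-0.47) lie furthest below it.

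The experiments differed in which way the 8 genes lay. In experiment 1, 1 of 8 was below 0 (Slc27a1), where 56.4% of all genes were. In experiment 2, 7 of 8 were below 0 (all but Fabp3), where 50.1% of all genes were, and in experiment 3 it was 4 of 8, where 48.5% of all genes were. The median over the 8 genes was 0.16, -0.12 and -0.0050 log2 units in the 3 experiments, against -0.03, -0.01 and 0 over all genes. Only Fabp3 kept 1 sign in all 3 experiments, where 21% of all genes did. The genes share the RNA of the same 2 cultures in each experiment, so their common sign there is 1 observation and not 8.

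The probe sets of Fabp4 differed in how far they lay from 0, and in experiment 2 the 2 dimmer ones lay further out. There the probe sets with mean levels of 14.36 and 13.12 stood at -0.12 and -0.11, and those at 9.32 and 8.45 both at -0.67. This order did not hold in the other experiments, where the probe set at 13.12 stood at 0.50 and -0.38, further from 0 than the one at 9.32 both times. For Fabp5 the experiment 2 values were -0.10 at a mean level of 13.87 and -0.30 at 13.16, and for Lpl -0.12 at 13.68 and -0.27 at 13.35. Those of Cd36 were already -0.61 at 12.08 and -0.57 at 12.02, with -0.76 at 8.38. Slc27a1 gave -0.18 at 7.93 and -0.22 at 7.65. The brightest probe set of Vldlr stood at -0.05, and dimmer ones at 6.51 and 4.86 lay above 0, at 0.24 and 0.30. The highest value on any array was 14.53. Over all probe sets with 1 symbol, the median SD over the 6 arrays was 0.046 log2 units for the 124 at a mean level of 13 or more, where 6 of the 22 probe sets lay, and 0.090 for the 5859 between 8 and 10. The Fabp4 probe set at 13.12 had an SD of 0.22, and whether signals near the top of the scale are compressed was not tested. The dimmer probe sets of Fabp4 did not pass either, and the lowest unadjusted p among all 22 probe sets was 0.126 in limma, for the dimmest of Fabp4, with an adjusted p of 0.995. Of the 22, 0 had an unadjusted p under 0.05, where 3.77% of all 45037 probe sets did.

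**Figure D3:**
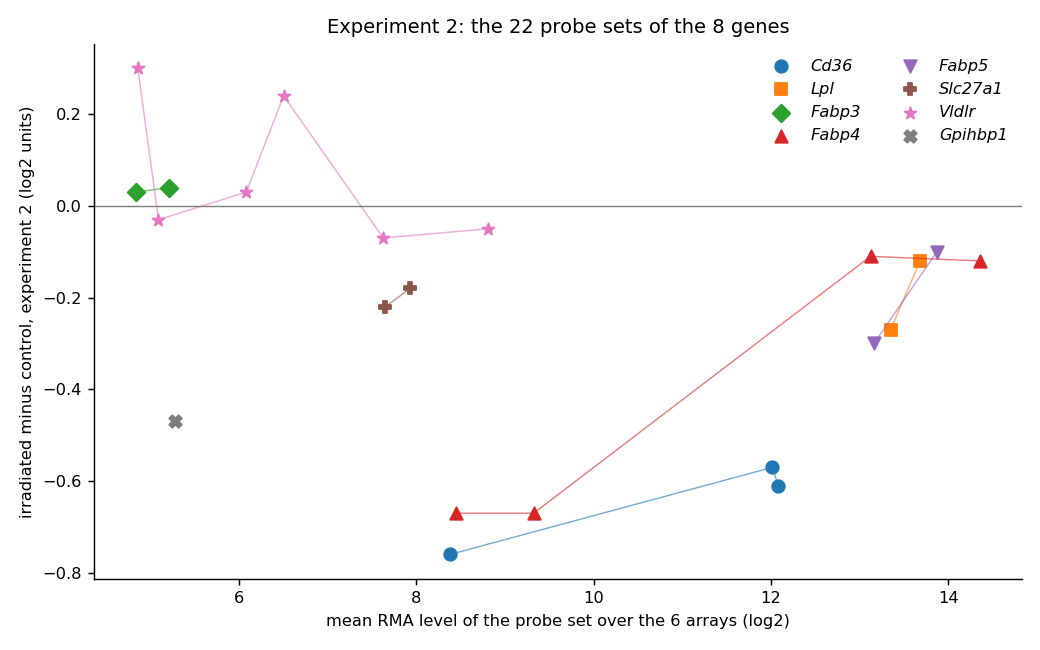
Irradiated minus control in experiment 2 (log2 units, vertical axis) against the mean level of the probe set over the 6 arrays (log2, horizontal axis) for all 22 probe sets; lines join probe sets of 1 gene. Probe sets of Fabp4 at mean levels of 9.32 and 8.45 lie at -0.67, and its 2 brighter ones at -0.12 and -0.11.

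No other gene of fatty acid handling passed the test. Of 111 other genes of fatty acid handling, in 8 lists, 101 were measured, and limma called 0 higher and 0 lower after Benjamini-Hochberg adjustment over all genes, with a smallest adjusted p of 0.995. One of the 101 (0.99%) had an unadjusted p under 0.05, where 3.31% of all genes did. It was Acot2, a mitochondrial thioesterase that frees fatty acids from coenzyme A, at 8.54, 8.47 and 8.45 in irradiated cultures, against 8.77, 8.61 and 8.66 in controls. All 3 irradiated cultures lay below all 3 controls, as in 5.36% of all genes, and the mean difference was -0.19 (SE 0.077; unadjusted p 0.0426, adjusted p 0.995 in limma).

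Among partners and inhibitors of the lipase, 0 of 14 measured genes passed, and 8 of 14 had a mean above 0. Apoe, the apolipoprotein that lipoprotein receptors bind, differed by -0.30, 0.28 and 0.56 in the 3 experiments. Apoa5, a liver activator of the lipase, and Apoc3, a liver inhibitor, were dim, with means of -0.16 (SE 0.082) and -0.18 (SE 0.094). In the list of other lipoprotein and scavenger receptors, 0 of 11 passed. Scarb1, the receptor for high density lipoprotein, stood at 0.02, -0.83 and 0.08, Sort1, a sorting receptor, at -0.02, -0.52 and 0.16, and Olr1, a receptor for oxidised lipoprotein, at -0.17, 0.06 and 0.76. Scarb1 and Sort1, like Cd36, lay furthest from 0 in experiment 2, and Olr1 in experiment 3. The list as a whole did not share the signs of Cd36 in experiments 1 and 2. Its medians were -0.09, 0.03 and 0.14 in the 3 experiments. Below 0 were 10, 3 and 2 of its 11 genes, where 56.4%, 50.1% and 48.5% of all genes were.

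Of the other genes of transport and activation, 0 of 14 passed. Acsl4, an acyl-CoA synthetase that prefers arachidonic acid, stood at 0.43, 0.23 and -0.25, and the dim Acsl6 at -0.18, -0.38 and 0. Of the other lipid-binding proteins, 0 of 14 passed, with Acbd5, an acyl-CoA binding protein of peroxisomes, at 0.40, 0.09 and -0.01 and Dbi, the common acyl-CoA binding protein, at -0.04, -0.41 and 0. Of 7 genes for the palmitoylation and traffic of CD36, 0 passed, with a median of 0.040 log2 units, and Zdhhc4, which palmitoylates CD36, at a mean of 0.080 (SE 0.084).

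Genes of mitochondrial oxidation and of caveolae had means mostly below 0, and the medians of both lists lay furthest from 0 in experiment 2. Of 21 measured genes of mitochondrial fatty acid oxidation 0 passed, 19 had a mean below 0, where 53.3% of all genes did, and the list's median was -0.02, -0.27 and 0 in the 3 experiments. Cpt2, a carnitine palmitoyltransferase, stood at -0.01, -0.65 and 0, Acads, a short-chain acyl-CoA dehydrogenase, at -0.06, -0.36 and -0.04 and Etfb, an electron carrier, at -0.01, -0.37 and -0.05. Each of these lay within 0.06 log2 units of 0 in experiments 1 and 3. Caveolae, small membrane pits lined by caveolins and cavins, had 0 of 8 genes passing and medians of 0.060, -0.26 and -0.12. Cavin2 stood at 0.24, -0.46 and -0.19 and Cavin1, which shapes caveolae, at 0.04, -0.23 and -0.16. Cav3, dim at a mean level of 4.31, stood at -0.01, 0.02 and -0.49, furthest from 0 in experiment 3.

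Of 12 measured regulators 0 passed and 10 had a mean below 0. Pparg itself stood at 9.87, 9.64 and 9.84 in irradiated cultures, against 9.78, 10.19 and 9.95 in controls, a mean difference of -0.19 (SE 0.13). The coactivators Ppargc1b and Ppargc1a stood at 0, -0.78 and -0.03 and, at a dim level of 4.40, at 0.71, 0.44 and -0.10. In the fat-cell markers the 10 measured genes were all below 0 in experiment 2, with a median of -0.58 there, against 0.030 and 0.045 in experiments 1 and 3. The macrophage markers had medians of -0.18, 0.065 and 0.16 and were below 0 in 14, 3 and 4 of 14 genes. Their summed linear level ran from 42690 to 59620 in irradiated and from 46270 to 53760 in control cultures. The brightest probe sets, such as that of Lyz2 at a mean level of 14.17, weigh most in this sum. It is not an amount of RNA or of cells. Cd36, Fabp4, Fabp5 and Lpl are also made by macrophages, and the part of either cell type in their levels was not tested.

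**Figure D4:**
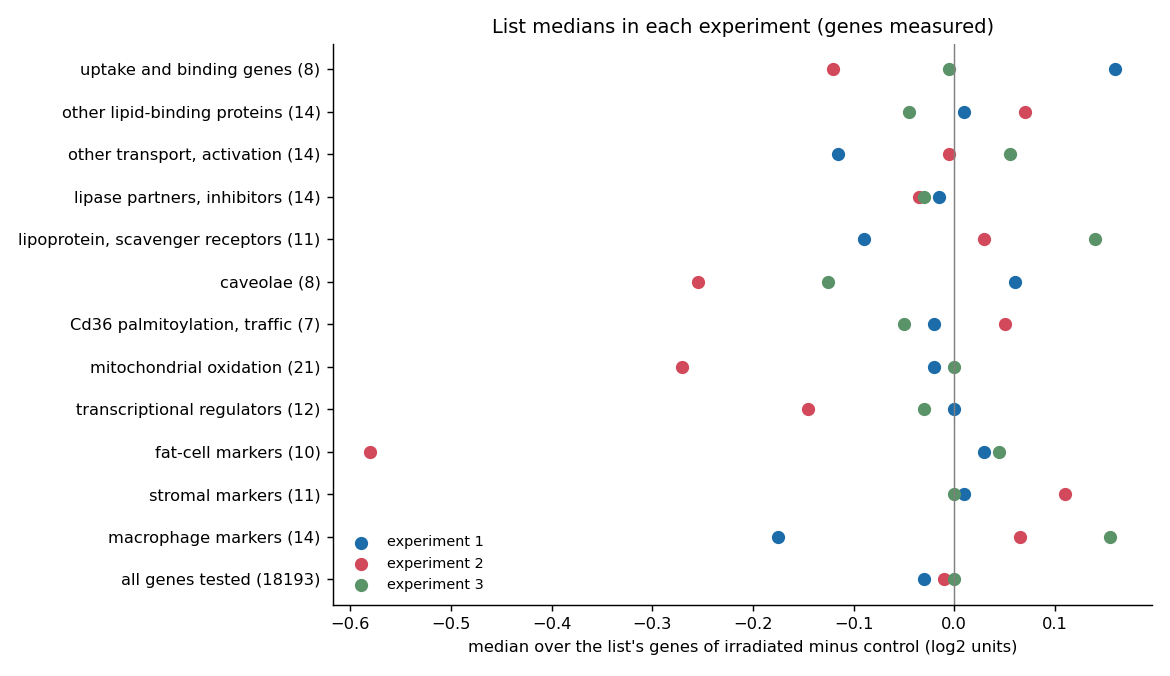
Median over each list's measured genes of irradiated minus control (log2 units, horizontal axis) in each of the 3 experiments, with the number of genes in brackets. The 8 uptake and binding genes stood at 0.16, -0.12 and -0.0050, and the fat-cell markers at -0.58 in experiment 2.

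Genes whose levels over the 6 cultures lay nearest to those of the 8 genes were sought among genes at or above the median gene level, 9093 for the average of the 8 and 9098, other genes of the 8 included, for a single gene. The measure was the root mean square distance between levels centred on each gene's own mean. Nearest to the average of the 8 genes were Them4, Psma1, Tmed5, Adipoq, Pxmp4 and Nrip1, at distances from 0.019 to 0.028 log2 units, where the median gene was at 0.12. The average itself stood at 0.13, -0.095 and -0.078 in irradiated and at 0.013, 0.11 and -0.075 in control cultures. Nearest to Cd36 were B3galt2, at 0.036, and Cdo1, at 0.072, where the median gene was at 0.29. B3galt2 stood at 7.82, 7.07 and 7.31 in irradiated cultures, against 7.64, 7.67 and 7.06 in controls. Nearest to Fabp4 were Prkaca and Larp4, at 0.015 and 0.020, and nearest to Lpl were Clpx and Hspa9, at 0.0076 and 0.015. The median gene was at 0.11 from Fabp4 and at 0.096 from Lpl. Lpl itself lay only 0.045 from its own mean and Fabp4 only 0.064, so that distances to either say little. With 6 arrays and so many genes searched, nearness alone carries little weight.

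**Figure D5:**
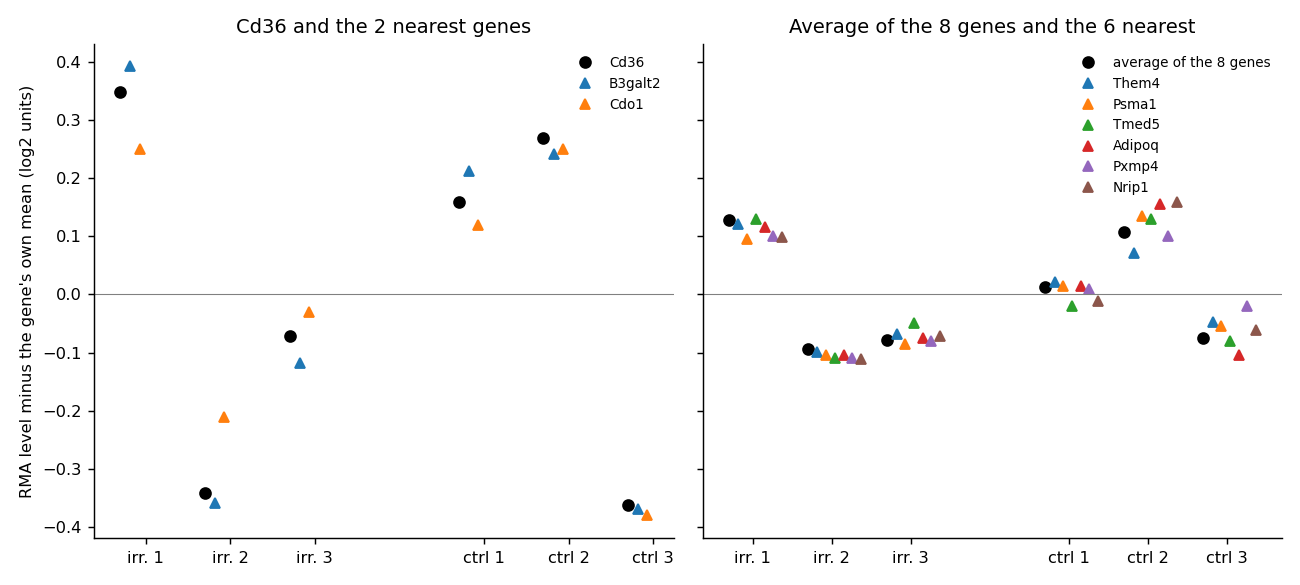
RMA level minus the gene's own mean over the 6 arrays (log2 units, vertical axis) in the irradiated (irr.) and control (ctrl) cultures of experiments 1 to 3, for Cd36 with its 2 nearest genes (left) and the average of the 8 genes with its 6 nearest (right). Cd36 and B3galt2 are low in the irradiated culture of experiment 2 and the control of experiment 3, with a distance of 0.036 over the 6 arrays.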

How the data were processed

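Total RNA (200 ng per culture) was copied into biotinylated cRNA and read on Affymetrix arrays, 1 per culture, per the labels' protocols. Each probe set has 1 deposited log2 value per array. The submitters' processing notes name RMA, affy and limma, with versions not given in the sources used here. The log base is not stated, and values from 1.73 to 14.53 were taken as log2. Quantile normalization, a step of RMA, hides any change common to all transcripts. Of 45101 probe sets, 64 array controls were left out, and 34945 of the rest had 1 symbol, 932 several and 9160 none in the platform annotation. Symbols were updated through Entrez identifiers (34741 matched, 0 changed). No filter on dim probe sets was used, detection calls were not used here. Precision is limited by the number of arrays.

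limma 3.58.1 in R 4.3.3 (lmFit, eBayes) fitted irradiated minus control with the experiment as a block over 18193 genes, and separately over 45037 probe sets, with Benjamini-Hochberg adjustment over all of them. Pairs follow the series' design, which sets each irradiated culture beside its own control. After subtracting group means, the 2 arrays of experiments 1 to 3 correlated at 0.087, -0.065 and -0.029. The highest correlation of the irradiated array with a control of another experiment was -0.023, 0.11 and 0.083. The pairing thus rests on the design and not on likeness of the arrays. Alternatives changed the block, the probe set per gene, the filter, the normalization and the moderation, or left out 1 experiment. The fit was tested on simulated data in 20 runs, each with 200 planted changes and the spreads of these arrays shuffled among genes. At an adjusted p under 0.05 in limma it found 0.1% of 1.25-fold and 18.7% of 1.5-fold changes. It found 59.7% of 2-fold and 81.8% of 3-fold changes, so most small changes would be missed. These rates belong to that setting and are not those of any single one of the 8 genes. All 8 measured genes and the genes nearest in profile are named. Others were drawn from the 3 genes per pathway list with the largest mean difference. Markers were drawn from the 3 brightest of each marker list and from set defining markers. Not all genes that these rules picked are printed. Genes and lists were chosen with earlier results of these data known. Bins of level were added after seeing the data.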

Additional observations from a re-analysis of the deposited data

How the results depend on the processing

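Under 12 alternatives 0 of the 8 genes and 0 of the 101 other pathway genes were called. The 94 values of single genes under these alternatives had a smallest adjusted p of 0.926 in limma, and 85 kept their direction. Changes of the block, the test or its moderation, and the filter on level, leave a gene's mean difference as it is. Those values could not turn, so the count of 85 is no measure of how stable the directions were. With 1 experiment left out, which leaves 2 pairs, Cd36 ran from -0.21 to 0.24, Lpl from -0.055 to 0.05, Fabp4 from -0.11 to 0.025, Gpihbp1 from -0.285 to 0.03, Fabp5 from -0.06 to 0.07, Slc27a1 from -0.22 to 0.01 and Vldlr from -0.225 to 0.065. Leaving out experiment 2 moved Cd36, Lpl, Fabp4 and Gpihbp1 above 0, and leaving out experiment 3 moved Vldlr and, at 0.015, Fabp4 above 0. Without experiment 1 Fabp5 lay below 0 and Slc27a1 above it. Fabp3 stayed above 0 in its 11 alternatives. Leaving out 1 experiment could not turn it, because its difference was above 0 in all 3. The choice of probe set moved Fabp4 to -0.12 with the mean over its probe sets and -0.29 with the one of the largest SD, against -0.023 with the brightest. With the largest SD Cd36 stood at -0.12, Lpl at -0.030 and Vldlr at -0.0067, and with the mean over probe sets Fabp3 stood at 0.058. A second quantile normalization put Lpl at 0.0003, and the cause was not tested. The median over the 8 genes ran from -0.085 to 0.040. An ordinary paired test without moderation called 8 genes and 12 probe sets, none of the 8 genes among them. The 8 genes it called had the same rounded difference in all 3 experiments, so that their estimated spread was 0. Without the replicate block limma called 0 genes (649 at an unadjusted p under 0.05) and 0 probe sets (1841), and the block changed no call of the 8 genes or the pathway genes. No detection calls were used, so the dim levels of Fabp3 and Gpihbp1 were not set against background.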

Other observations

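The control of experiment 3 was the lowest of the 6 cultures for some of the named genes and not for others. The share of all genes that were lowest there was not determined. Of the 8 genes, Cd36, Slc27a1 and Fabp3 were lowest there and the others were not. Cd36 was at 11.72 there, against 11.74 to 12.43 in the other 5 cultures, and Slc27a1 at 7.72, against 7.86 to 8.12. Fabp3 was at 5.12 there, against 5.16 to 5.41. Olr1, the receptor for oxidised lipoprotein, was at 6.26 there, also its lowest of the 6. Cdo1 was lowest there too, at 11.02, but it was picked for its nearness to Cd36 over these arrays and adds no separate observation. Fabp4, at 14.40 there, was among the higher cultures, and Lpl, at 13.66, was in the middle of its range. The same array had the largest gaps between 3′ and 5′ control probe sets, 0.68 log2 units for actin and 0.11 for Gapdh, where the other 5 arrays lay between 0.50 and 0.57 and between -0.10 and -0.08. The part of that array in these levels was not tested. Without experiment 3 the mean difference was -0.21 for Cd36, -0.22 for Slc27a1 and 0.145 for Fabp3, and none of them passed.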
